A study of Mus musculus with 30 samples.

Results

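Fgf21 and Gdf15 encode secreted hormones that cells release under metabolic and organelle stress. The members were all probe sets annotated to only 1 of these 2 genes. Of 45265 probe sets on a pair of Affymetrix chips, 22690 on A and 22575 on B, 1 met this rule, on the A chip, and it reports Fgf21. It makes Fgf21 1 of 18193 genes named by such probe sets. The annotation used here names no probe set for Gdf15, so Gdf15 was not analysed here. Fgf21 was chosen by its intensity on these same arrays, for its large difference between 24 h and 0 h. That difference is therefore given as a description with no test.

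Total RNA was taken from cultured cells, which the labels place in mouse leg muscle, at hours 0, 4, 12, 24 and 48. Each hour had 3 replicates on each chip, 30 arrays in all. The hour is the only difference between the groups that the labels give. They name no strain, age, medium or treatment, and they do not say what happened at 0 h. Whether replicates were separate cultures is not stated either, and a p-value here covers only array-to-array spread, part of which may be technical.

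Fgf21 is an endocrine member of the fibroblast growth factor family. It binds weakly to heparan sulphate, so it can leave the tissue that makes it, and it acts on cells that carry an Fgf receptor together with the co-receptor beta-klotho (Klb). The liver makes it during fasting under Ppar alpha. Skeletal muscle makes little of it at rest and more under mitochondrial or endoplasmic reticulum (ER) stress, when kinases phosphorylate the initiation factor eIF2 alpha and the transcription factor Atf4 is translated. Atf4 pairs with CCAAT enhancer binding proteins on composite DNA elements in front of genes of amino acid supply.

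The 250 bases before the annotated start of Fgf21 are shown because they hold a match to that composite element. They were taken from RefSeq (GRCm38.p6, chr7:45615491-45615740, minus strand) and are written 5′ to 3′ along the gene. Capitals mark the composite element match, read here on the opposite strand, and the TATA box.
Fgf21 promoter: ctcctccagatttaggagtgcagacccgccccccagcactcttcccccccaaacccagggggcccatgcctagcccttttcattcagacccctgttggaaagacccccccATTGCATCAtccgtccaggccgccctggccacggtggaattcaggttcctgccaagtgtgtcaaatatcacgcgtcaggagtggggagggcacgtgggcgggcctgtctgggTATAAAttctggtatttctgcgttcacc
Both strands were searched for 5 motifs. The composite element, searched as TGATGNAAN, lay at -140 to -132 from the start and occurred in 3.44% of 32851 promoter windows of the same length. The TATA box, searched as TATAAA, lay at -28 to -23 and occurred in 12.4% of the windows. The E-box, searched as CANNTG, occurred at -88 to -83 and at -50 to -45, with 66.2% of the windows holding at least 1. The GC box, searched as GGGCGG, occurred 3 times, once overlapping the second E-box by a single base, and in 32.7% of the windows. The cAMP response element, searched as TGACGTCA, had no match in this window and occurred in 1.55% of all windows. These are matches of letters, and no binding was measured.

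Fgf21 was lowest at 0 h and highest at 24 h in each of the 3 replicates, and lower again at 48 h than at 24 h. Values are linear probe set intensities in arbitrary units, scaled by array. At 0 h the probe set read 681.6, 638.5 and 336.9 in replicates 1, 2 and 3, a mean of 552.3 ± 187.8 (SD, n = 3). At 4 h it read 1069, 914.9 and 445.2, a mean of 809.8 ± 325.1. At 12 h it read 2444, 2576 and 832.3, a mean of 1951 ± 970.8. Replicates 1 and 2 lay close together at these hours, and replicate 3 was the lowest array each time.

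At 24 h the intensity was 3858, 3660 and 1557, a mean of 3025 ± 1275, which is 5.48 times the 0 h mean. All 3 arrays at 24 h lay above all arrays at 0, 4 and 48 h (1.6% of tested A probe sets had 24 h arrays above all those at 0 and 48 h), and the 24 h array of replicate 3 lay below the 12 h arrays of replicates 1 and 2. At 48 h it read 896.2, 883.0 and 751.0, a mean of 843.4 ± 80.29. The replicates were closest at this hour, with an SD of 9.52% of the mean against 34.0% to 49.8% at the other hours. Relative to the 0 h array with the same replicate number, the 24 h array was 5.66, 5.73 and 4.62 times as bright.

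**Figure D1:**
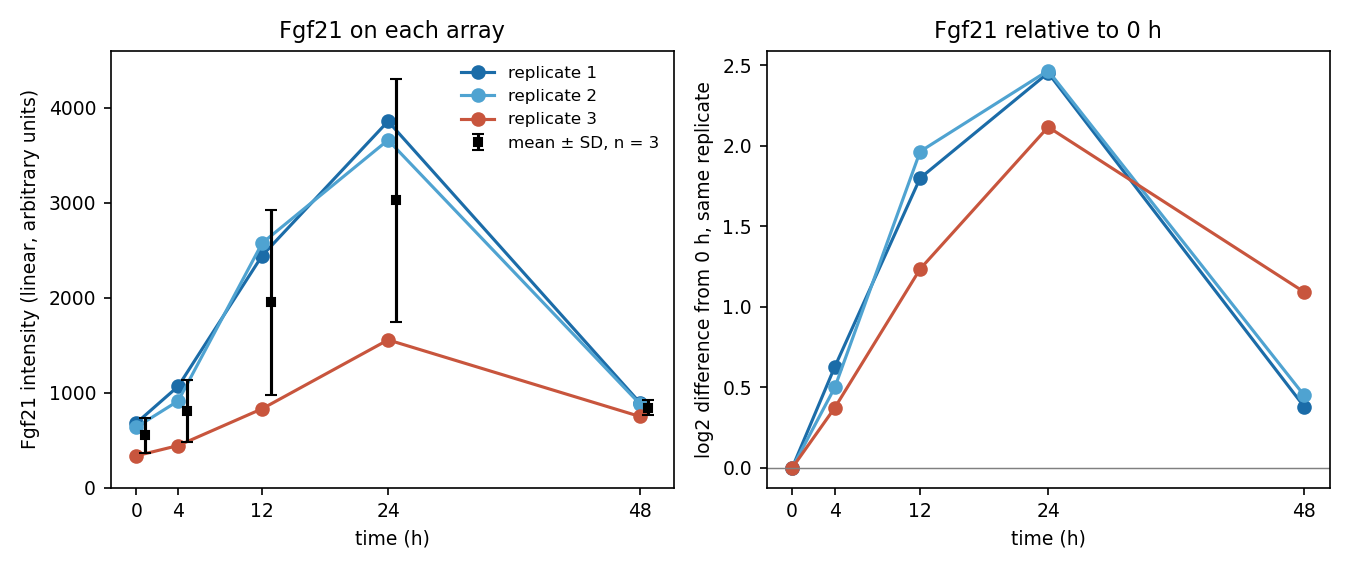
Fgf21 by hour. Left, linear intensity (arbitrary units) on each A array against time in hours, with lines joining arrays of the same replicate number and black squares for the mean ± SD of 3 arrays; right, the log2 difference from the 0 h array with the same number. The 24 h arrays read 3858, 3660 and 1557, and replicate 3 is the lowest array at every hour.

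By their means the hours ran 0, 4, 48, 12 and 24 h from lowest to highest. The arrays of each neighbouring pair in that order overlapped. In replicates 1 and 2 alone the order was 0, 48, 4, 12 and 24 h, and no neighbouring pair overlapped, with 2 arrays per hour.

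Comparisons between hours were fitted with limma over all 13576 tested A probe sets, with Benjamini-Hochberg adjustment. Differences are on the log2(intensity + 29) scale, and those with an adjusted p under 0.05 count as called. The differences of 12 h from 4 h and of 48 h from 4 h and 12 h use neither the 0 h nor the 24 h arrays that chose the gene. Their SE and p are not free of those arrays, since the fit estimates the spread over the arrays of all hours. At 12 h Fgf21 was 1.17 ± 0.45 (SE) above 4 h on the log2 scale, higher in 3 of 3 replicates. This did not pass over all arrays (adjusted p = 0.971 in limma), where 0% of probe sets were called. With replicate 3 as a batch term the adjusted p was 0.0308, in a fit that called 0.0884% of probe sets, and in replicates 1 and 2 alone the difference was 1.32 with an adjusted p of 0.000856 (1.42% called). With every replicate number as a term it did not pass (adjusted p = 0.0557 in limma), and the arrays of the 2 hours overlapped.

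At 48 h Fgf21 was 1.03 below 12 h on the log2 scale (difference -1.03 ± 0.45, SE). Replicates 1 and 2 differed by -1.42 and -1.51 and replicate 3 by -0.14, and the arrays of the 2 hours overlapped. The adjusted p in limma was 0.546 over all arrays (0.11% called), 0.00618 with the batch term (4.18% called) and 3.683e-05 in replicates 1 and 2 (7.3% called). Between 48 h and 4 h the difference was 0.14 ± 0.45 over all arrays (adjusted p = 0.938 in limma, 1.12% called). It was higher at 48 h in 1 of 3 replicates, and the difference was -0.15 in replicates 1 and 2 alone (adjusted p = 0.521). Both 48 h comparisons were added after the data had been seen.

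The remaining comparisons use the 0 h or 24 h arrays that chose the gene, so they are descriptions and no test is given. From 0 to 4 h the log2 difference was 0.50 over all arrays and 0.56 in replicates 1 and 2. From 0 to 12 h it was 1.67 and 1.88, with no overlap between the arrays, which 5.84% of A probe sets showed in that direction. From 0 to 24 h it was 2.34 and 2.46, without overlap either, as in 9.58% of probe sets. At 48 h Fgf21 was 0.64 above 0 h over all arrays and 0.42 in replicates 1 and 2, without overlap, as in 9.89% of probe sets.

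From 12 to 24 h the log2 difference was 0.65, 0.50 and 0.88 in replicates 1, 2 and 3, and the arrays of these hours overlapped. From 24 to 48 h it was -2.07, -2.02 and -1.02, and the ratio of the 48 h mean to the 24 h mean was 0.279. The 24 h and 48 h arrays did not overlap, as in 5.07% of probe sets in that direction.

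The path of values counted here was taken from Fgf21 itself, so its own match was fixed in advance and the shares are descriptions. On the A chip 18.1% of tested probe sets had their highest mean at 24 h and 3.14% were highest at 24 h in each of the 3 replicates. In 24 of 13576 (0.177%) each replicate was higher at each step from 0 to 24 h and lay between its 0 h and 24 h values at 48 h, a description added after the data had been seen. Beside Fgf21 these 24 held Slc7a5, the sarcomere genes Ankrd2, Csrp3 and Smpx, and the muscle transcription factor gene Mef2d. They also held Tm6sf1, Usp2, Mttp, Mospd1, Dlgap4, Tln1, Rassf3 and further probe sets, some with no gene name, so the genes named are examples. The smallest log2 distance of any replicate between 24 h and 0 h was 2.12 for Fgf21, 1.57 for Tm6sf1 and 1.52 for Ankrd2. Between 24 h and 48 h it was 1.02, 0.31 and 1.11 in the same order.

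Replicate 3 stood apart from replicates 1 and 2 across the chip, with 33.9% of A probe sets called between them in limma with hour as a further factor. Fgf21 was lower in replicate 3 by a log2 difference of -1.01 ± 0.13 (SE), and lower at 5 of 5 hours. This fit counts the hours of a replicate number as independent arrays, so its calls do not measure spread between replicates. It also includes the 0 h and 24 h arrays that chose the gene, so the Fgf21 difference is given without a test. Between 24 h and 0 h the change in replicate 3 minus that in the others was -0.34 ± 0.23 for Fgf21, where 0.714% of A probe sets were called. This difference uses the arrays that chose the gene, so it is a description and no test is given. At 48 h replicate 3 still read 2.23 times its 0 h array, against 1.32 and 1.38 times in replicates 1 and 2. The difference between these changes was 0.68 ± 0.23, where 1.78% of A probe sets were called. It uses the 0 h arrays and is likewise given without a test.

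Markers of dividing cells were lower at 24 h than at 0 h and higher in replicate 3, the opposite of Fgf21 on both counts. Of 10 such markers 9 were measured and tested, and their median level, as log2 distance from each gene's own mean, was -0.06, 0.18 and 0.96 at 0 h in replicates 1, 2 and 3. At 24 h it was -1.002, -1.04 and 0.64. All 9 had a negative difference at 24 h against 0 h, with a median of -0.80 against -0.05 over all genes. None of the 9 was called over all arrays in limma (0 at an unadjusted p under 0.05), 8 were called lower with the batch term (6% of all genes) and 9 in replicates 1 and 2 (7.12%). Their summed intensity was 11705 to 21943 at 0 h and 6704 to 18063 at 24 h. All 9 were higher in replicate 3 than in replicates 1 and 2, where 14.6% of all genes were.

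Cdk1, the mitotic cyclin-dependent kinase, had a Pearson r with Fgf21 of -0.89 over the 15 A arrays, -0.99 over the 10 arrays of replicates 1 and 2 and -0.79 over the 5 of replicate 3. Plk1, the polo-like mitotic kinase, had -0.87, -0.98 and -0.93. Among the tested markers these genes had the most negative r over the 15 arrays. In the same order Bub1 had -0.74, -0.88 and 0.43, Mki67 -0.84, -0.95 and -0.26, and Mcm2 -0.67, -0.45 and -0.93. Each tested marker was negative over the 15 arrays, and only Bub1 was positive in replicate 3. These are descriptions over arrays that share hours and replicates. In cultures of many cells, fewer cells of a type and less RNA per cell cannot be told apart, and the part of cell division in the Fgf21 values was not tested.

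**Figure D2:**
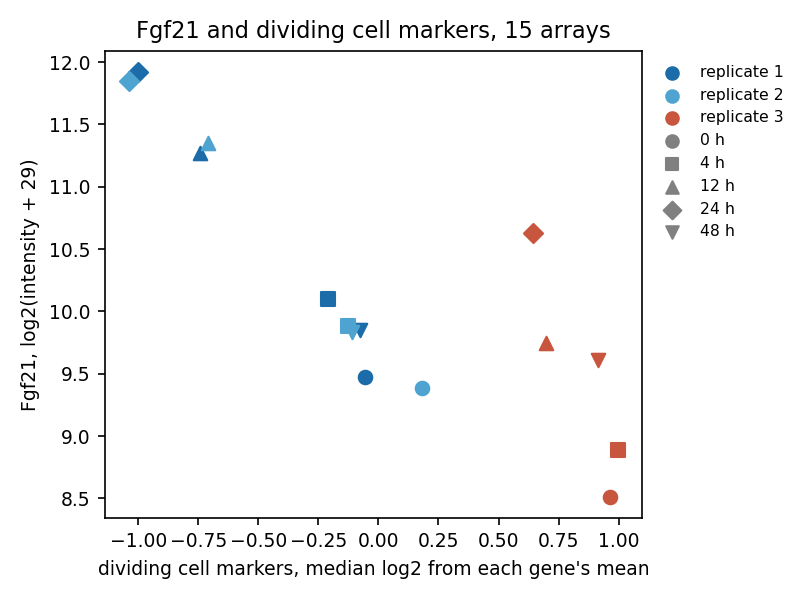
Fgf21 as log2(intensity + 29) against the median of 9 dividing cell markers (log2 distance from each gene's mean over the arrays) on the 15 A arrays, with colour for the replicate and shape for the hour. Within replicates 1 and 2 the 24 h arrays sit at the upper left and the 0 h arrays at the lower right, and the arrays of replicate 3 lie to the right of both.

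Markers of skeletal muscle were all tested, 10 of 10, and their summed intensity was 59603 to 67717 at 0 h and 79892 to 86370 at 24 h. At 24 h against 0 h 3 were called higher and 1 lower over all arrays, against 1.58% and 0.94% of all genes. Tnnt3 (fast troponin T) and Myh3 (embryonic myosin) rose by 1.24 and 1.28 on the log2 scale (adjusted p = 0.00678 and 0.00510 in limma), calls kept in 15 of 15 fits that left out an array. Ckm (muscle creatine kinase) rose by 1.61 and Myf5, a factor of early muscle precursors, fell by 1.31 (adjusted p = 0.0202 and 0.0310), each kept in 11 of 15 such fits. A second Ckm probe set had a difference of 0.12 and was not called.

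Marker lists of other cells are given beside these without comparing levels between lists, since different probe sets are not on a common scale. The 5 hepatocyte markers on the A chip summed to 295.6 to 359.7 at 0 h and 345.9 to 409.5 at 24 h, with Alb (albumin) below the filter for dim probe sets at 44.0 and 44.3. The 2 hepatocyte markers that passed the filter were Apob (apolipoprotein B, on the B chip), at 109.4 and 309.5, and Cyp2e1, a cytochrome P450, at 93.3 and 115.3. Their log2 differences were 1.12 and 0.26, with adjusted p of 0.112 and 0.620 in limma. The 5 adipocyte markers on A summed to 220.5 to 250.1 and 120.0 to 240.6, with Adipoq at 16.2 and 13.8 below the filter, and the 1 tested, Retn, had a difference of -0.44 (adjusted p = 0.377).

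Macrophage markers (7) summed to 563.8 to 780.6 at 0 h and 624.7 to 645.4 at 24 h, endothelial markers (6) to 271.0 to 314.5 and 285.0 to 380.5, and fibroblast markers (5 on A) to 3044 to 3788 and 1862 to 4075. Of these lists 3, 2 and 1 genes were tested and none was called over all arrays or with the batch term. In these fits 1.58% and 5.3% of all genes were called higher at 24 h, and 0.94% and 6% lower. The 4 pericyte markers on A summed to 650.4 to 2726 and 560.7 to 942.7. Of the 3 tested pericyte markers Rgs5 had a log2 difference of -1.90 (adjusted p = 0.607 in limma over all arrays, lower with the batch term at 3.035e-05) and Cspg4 of -0.06. Abcc9, on the B chip and also known in muscle, rose by 1.46 (adjusted p = 0.0112), a call kept in 11 of 15 fits that left out an array. A second Abcc9 probe set had a difference of 0.94 and was not called. The part of these cells in the Fgf21 values was not tested.

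No receptor of Fgf21 was called at 24 h against 0 h, where 2.67% of A probe sets were called. With only 4 receptor genes tested, the absence of calls says little at that share. Fgfr1, the receptor that Fgf21 mainly uses together with Klb, averaged 521.7 at 0 h and 413.1 at 24 h (log2 difference -0.34, adjusted p = 0.461 in limma). Fgfr2, Fgfr3 and Fgfr4 had differences of -0.13, 0.10 and -0.30, with adjusted p of 0.669 to 0.903. Klb was below the filter for dim probe sets, with hourly means of 15.4 to 67.9, and so was Fap, the protease that inactivates human Fgf21, at 28.2 to 40.7. None of the 4 tested receptor genes had an unadjusted p under 0.05 in limma at 24 h. Ret, the signalling subunit of the Gdf15 receptor, had means of 139.6 (0 h) and 112.9 (24 h), a log2 difference of -0.26 with an adjusted p of 0.67 in limma. Its partner Gfral had no probe set named here.

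Among 17 other Fgf ligand genes 6 passed the filter. None was called at 24 h against 0 h over all arrays, where 1.58% of all genes were called higher and 0.94% lower. Of the 6, 1 had an unadjusted p under 0.05 in limma. Fgf9, which signals to neighbouring cells, had means of 226.1, 495.3 and 588.8 at 0, 24 and 48 h (log2 difference at 24 h 1.00, adjusted p = 0.335). Fgf6, a ligand made in developing muscle, had means of 95.07, 175.8 and 321.4 at the same hours, and rose by 1.31 at 48 h with the batch term (adjusted p = 0.0155). In replicates 1 and 2 both were highest at 48 h. In replicate 3 Fgf6 read 101.8 at 0 h, was -0.02 from it in log2 at 48 h and was highest at 12 h (151.4), and Fgf9 read 475.3 at 24 h against 467.2 at 48 h. Fgf4 and Fgf5 had differences of -0.15 and 0.72 at 24 h, with adjusted p of 0.758 and 0.626.

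The stress kinases and transcription factors that stand upstream of Fgf21 gave 1 call at 24 h, Atf5. Of 16 listed genes 15 were tested, and over all arrays 1 was called higher and 0 lower, against 1.58% and 0.94% of 12446 genes. Atf5, a relative of Atf4 that is translated under the same conditions and active in mitochondrial stress, read 736.9, 731.2 and 715.4 at 0 h. At 24 h Atf5 read 1778, 2416 and 1395, and all 3 arrays lay above those at 0 h. It rose by 1.29 ± 0.29 (SE, adjusted p = 0.0270 in limma, 0.00427 with the batch term). At 48 h replicates 1 and 2 were back at 808.2 and 847.2 while replicate 3 was at 1817, its highest value. The call was lost when any 0 h array, or a 24 h array from replicate 1 or 2, was left out, with adjusted p up to 0.158.

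Atf4 itself averaged 3401 at 0 h and 4317, its highest mean, at 4 h (log2 difference 0.34). This was not called, and Atf4 transcript need not follow its translation. At 4 h 13 of the 15 genes had a positive difference with a median of 0.34, against 43.2% of all genes and a median of -0.03. None was called over all arrays (1 at an unadjusted p under 0.05 in limma) or with the batch term, where 0% of genes were. Tfe3, a lysosomal stress factor on the B chip, averaged 3052 at 0 h and 1940 at 24 h, and fell by 0.63 on the log2 scale with the batch term (adjusted p = 0.0387), not over all arrays (0.109). Eif2ak3, the ER stress kinase PERK, and Tfeb, a factor related to Tfe3, had differences of -0.55 and 0.16 at 24 h with adjusted p of 0.193 and 0.804.

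The amino acid response targets of Atf4 had the largest median difference at 24 h of the 5 stress lists. Of 26 genes 24 were tested, and 20, 20, 21 and 21 had a positive difference at 4, 12, 24 and 48 h, with medians of 0.20, 0.33, 0.51 and 0.25. At 24 h 43.8% of all genes were positive with a median of -0.05. At 24 h 2 were called higher and 0 lower over all arrays, and with the batch term 5 were called higher and 1 lower, against 5.3% and 6% of genes. In replicates 1 and 2 alone the 48 h median was 0.02, with 12 of 24 positive.

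Slc7a5, the large neutral amino acid transporter, read 595.2, 807.3 and 1671 at 0 h and 2678, 3118 and 3812 at 24 h. The 24 h arrays lay above all 0 h arrays, and replicate 3 was the highest at both hours, the opposite of Fgf21. It rose by 1.73 ± 0.30 (SE, adjusted p = 0.00850 in limma). The adjusted p stayed at 0.0581 or below when each array was left out, and the call was lost only without the 0 h array of replicate 2. Asns, asparagine synthetase, read 2795, 2835 and 4108 at 0 h and 5414, 5267 and 6115 at 24 h, without overlap. It rose by 0.80 ± 0.20 (adjusted p = 0.0470), a call kept in 4 of 15 fits that left out an array (adjusted p up to 0.205). A second Asns probe set had a difference of 1.07 and was called over all arrays. Slc7a5 and Asns were lower at 48 h than at 24 h in replicates 1 and 2, and Asns was highest at 48 h in replicate 3.

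Mthfd2, a mitochondrial folate enzyme, averaged 1803 at 0 h and 2957 at 24 h (0.72, adjusted p = 0.0822 over all arrays and 0.0115 with the batch term). A second Mthfd2 probe set had a difference of 1.19 and was called over all arrays. Psat1 of serine synthesis and Cth of cysteine synthesis also rose with the batch term (adjusted p = 0.00403 and 0.0223). Ddit4, an inhibitor of mTORC1, went the other way, from 1233 to 710.3, and fell by 0.75 with the batch term (adjusted p = 0.0252). In this list 13 of 24 genes were higher in replicate 3 and 1 was lower, against 14.6% and 15.1% of all genes, whereas Fgf21 was lower there.

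**Figure D3:**
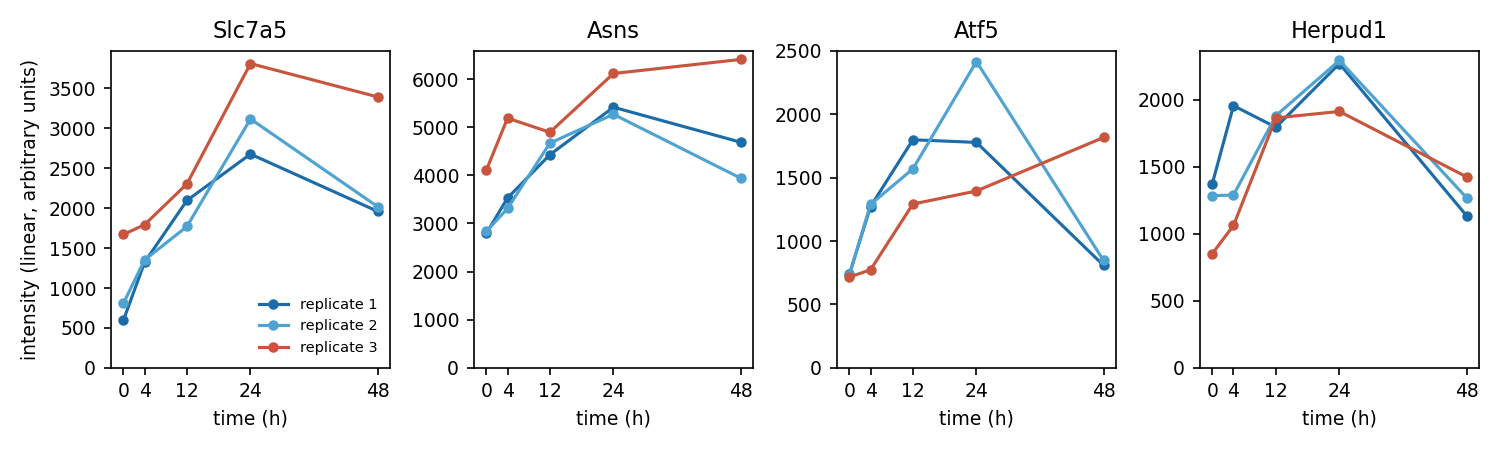
Linear intensity (arbitrary units) of Slc7a5, Asns, Atf5 and Herpud1 on each A array against time in hours, with 1 line per replicate number. At 24 h every array of each gene lies above its 0 h arrays; Slc7a5 and Asns are highest in replicate 3 at 24 h, where Atf5 and Herpud1 are lowest.

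The composite element of the Fgf21 promoter had a match in the same window of 8 of 22 amino acid response targets that had a promoter entry, 1 of 15 stress kinases and factors and 1 of 11 ER folding genes. Counted by promoter window these were 8 of 26, 1 of 20 and 1 of 11, against 3.44% of all 32851 windows. The first list is one of Atf4 targets, so its share is a description. The element and 8 bases on each side are shown for Fgf21 and 5 of these genes, turned so that the element reads the same way, with its 9 letters in capitals.
Fgf21: acccccccATTGCATCAtccgtcca
Nupr1: agggccagATTGCATCAgacagggc
Asns: tgcgggaaGTTTCATCAtgtggctg
Chac1: tccctgccGTTGCATCActcctgcc
Atf3: ttctcgcaCTTGCATCAccaagtcc
Herpud1: cacggcggGTTGCATCAgcccgcac
They lie at chr7:45615614-45615638 (Fgf21), chr7:126625565-126625589 (Nupr1), chr6:7693216-7693240 (Asns), chr2:119351040-119351064 (Chac1), chr1:191183428-191183452 (Atf3) and chr8:94386308-94386332 (Herpud1) in GRCm38.p6. Nupr1, a stress chromatin protein, shares all 9 letters with Fgf21, and so does Pycr1 of the amino acid response targets, which is not shown. The 6 tested amino acid response targets with a match had log2 differences of 0.20 to 1.03 at 24 h (median 0.60, 6 of 6 positive). The 14 tested targets with a promoter entry and no match had -0.75 to 1.12 (median 0.37, 11 of 14 positive). These ranges overlap, and the genes were not compared by a test.

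Among 14 genes of the ER folding response, all tested, 1 was called higher at 24 h over all arrays (1.58% of all genes) and 5 with the batch term (5.3%), with 0 lower in either fit (0.94% and 6%). Herpud1, which helps to clear misfolded ER proteins, read 1375, 1285 and 852.4 at 0 h and 2271, 2295 and 1914 at 24 h, without overlap. It rose by 0.89 ± 0.21 (SE, adjusted p = 0.0353 in limma), a call kept in 7 of 15 fits that left out an array. Its 48 h arrays, at 1136 to 1426, lay below all 24 h arrays. A second Herpud1 probe set had a difference of 1.325 at 24 h and was called over all arrays. Sdf2l1 and Dnajc3, ER chaperone cofactors, and Atf6, the ER membrane factor, rose by 0.81, 0.64 and 0.74 with the batch term (adjusted p = 0.00939, 0.0259 and 0.0140). The fifth, Dnajb9, rose by 0.81 (adjusted p = 0.00103). Hspa5 (BiP), the main ER chaperone, had a difference of 0.13 (adjusted p = 0.533), and the median over the list was 0.15.

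**Figure D4:**
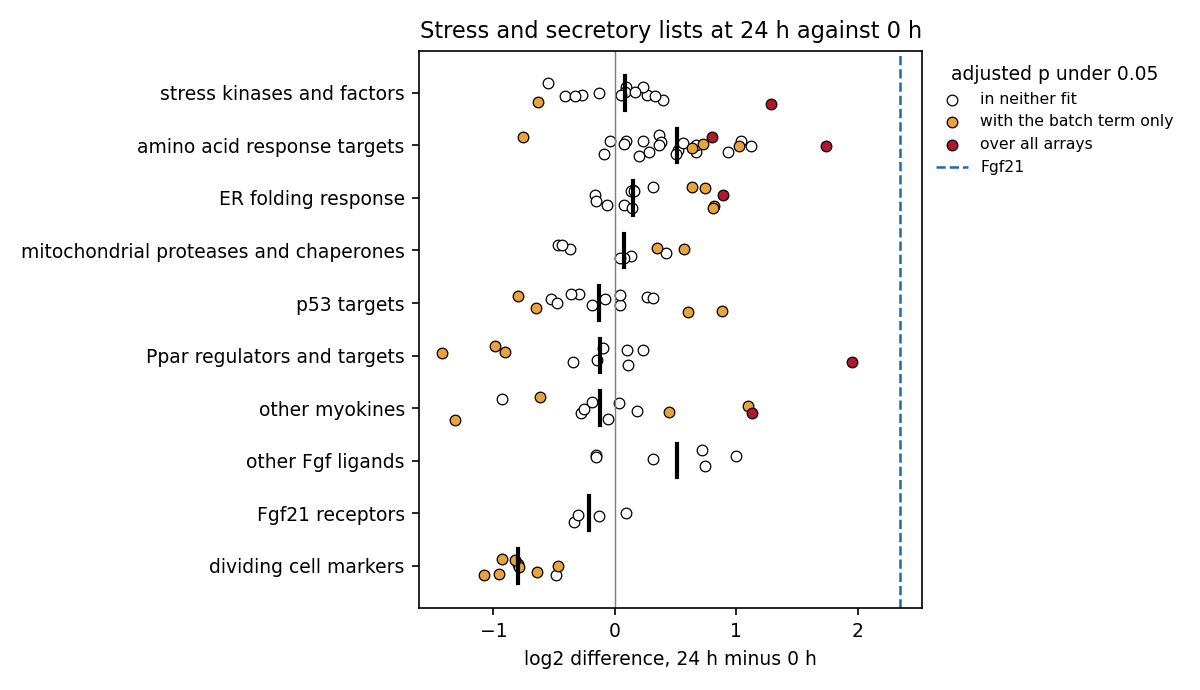
Log2 difference at 24 h minus 0 h of each tested gene of 10 lists, 1 point a gene, with a bar at each list's median and a dashed line at Fgf21 (2.34, not tested). Red points were called over all arrays, orange points only with replicate 3 as a batch term, and white points in neither fit; the amino acid response targets have a median of 0.51 and the dividing cell markers of -0.80.

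Mitochondrial chaperones and proteases, markers of a mitochondrial stress response, gave 0 calls of 9 over all arrays at 24 h (3 at an unadjusted p under 0.05 in limma). Over all genes 1.58% were called higher and 0.94% lower. With the batch term 2 of the 9 were called higher and 0 lower, against 5.3% and 6% of all genes. Yme1l1, an inner membrane protease, rose by 0.57 and Hspa9, the mitochondrial Hsp70, by 0.35 (adjusted p = 0.0436 and 0.0295 in limma with that term). Each of these 2 genes had 4 tested probe sets, 3 positive, and the lowest were at -0.04 for Yme1l1 and -0.01 for Hspa9. Lonp1, a matrix protease, and Trap1, a chaperone, had -0.47 and -0.44, with adjusted p of 0.324 and 0.160 over all arrays.

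P53 targets are relevant because Gdf15 is one, and 14 were tested. At 24 h 0 were called over all arrays (4 at an unadjusted p under 0.05 in limma), against 1.58% of all genes higher and 0.94% lower. With the batch term 2 were called higher and 2 lower, against 5.3% and 6% of all genes. Pmaip1, a promoter of cell death that Atf4 also controls, averaged 965.9 at 0 h and 1761 at 24 h, and rose by 0.88 (adjusted p = 0.0136). Btg2, an inhibitor of proliferation, averaged 1300 and 742.4, and fell by 0.79 (adjusted p = 0.00782). The others were Gadd45a (0.60) and Trp53inp1 (-0.65). Bbc3 and Zmat3 had -0.52 and -0.36, with adjusted p of 0.192 and 0.306 over all arrays.

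Of the Ppar regulators and targets, the route of hepatic Fgf21 induction, 10 were tested. Fabp3, a muscle fatty acid carrier, had means of 170.4, 738.8 and 1040 at 0, 24 and 48 h, and rose by 1.96 at 24 h (adjusted p = 0.0270 in limma). The call was lost when a 0 h or 24 h array from replicate 1 or 2 was left out, and a second probe set read -0.05. With the batch term 3 targets fell (6% of all genes). Pdk4, which restrains glucose oxidation, averaged 1661 and 601.1 (-1.42, adjusted p = 1.859e-05). Cpt1a, the gate of mitochondrial fatty acid import, averaged 1725 and 842.6 (-0.98, adjusted p = 0.000425), and Angptl4, a lipase inhibitor, 1148 and 605.1 (-0.90, adjusted p = 0.0423). These 3 had their lowest means at 24 h. Over all arrays Pdk4, Cpt1a and Angptl4 were not called (adjusted p = 0.134, 0.129 and 0.196 in limma). Of the 10 tested genes 4 had a positive difference at 24 h. The part of Ppar factors in the Fgf21 values was not tested.

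Of 20 other myokines, signals that muscle secretes, 12 were tested. Fndc5, the precursor of irisin, on the B chip, had means of 2756, 6169 and 4184 at 0, 24 and 48 h. It rose by 1.13 at 24 h (adjusted p = 0.0498 in limma), a call kept in 3 of 15 fits that left out an array. A second Fndc5 probe set had a difference of 0.66 and was not called. With the batch term 3 of the 12 myokines were called higher and 2 lower, against 5.3% and 6% of all genes. Igf1, the growth factor, had means of 149.4, 341.2 and 129.2 at these hours, and rose by 1.10 at 24 h with that term (adjusted p = 0.00434). Fst (follistatin), an activin antagonist, rose by 0.44 (adjusted p = 0.0218), and a second Fst probe set, at 0.89, was called over all arrays. The 2 lower were Bdnf (-1.32) and Cxcl12 (-0.62). Sparc, a matrix protein, had a difference of 0.03 (adjusted p = 0.97 over all arrays). Il6 and Lif were below the filter, with hourly means of 20.2 to 37.1 and 76.1 to 119.9.

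Of 7891 genes with a named and tested A probe set, 8 had a Pearson r with Fgf21 above 0.9 over the 15 arrays, each gene taken by the probe set that correlated best. They were Mef2d (0.93), Mafk (0.93), Morc4 (0.92), Plaat3 (0.92), Dnaja4 (0.91), Prkaca (0.91), Zeb1 (0.90) and Atg12 (0.90). In replicates 1 and 2 alone the r of these 8 was 0.897 to 0.940, and in the 5 arrays of replicate 3 it was 0.808 to 0.958. All 8 had their highest mean at 24 h and a smaller difference there than Fgf21. Mef2d had means of 960.4, 1905 and 1172 at 0, 24 and 48 h (log2 difference 0.94 at 24 h). Dnaja4, an Hsp40 co-chaperone, averaged 214.9, 674.1 and 314.6 (1.50), the largest of the 8 differences. Atg12, which conjugates to Atg5 in autophagy, had the smallest, 0.44. Dnaja4 and Mef2d each had 3 tested probe sets, with 24 h differences of 0.94 to 1.50 and of 0.26 to 0.94. The 8 genes were chosen for following Fgf21 over these arrays, which share their hours, replicates and scaling, so these likenesses are descriptions and no test is given.

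**Figure D5:**
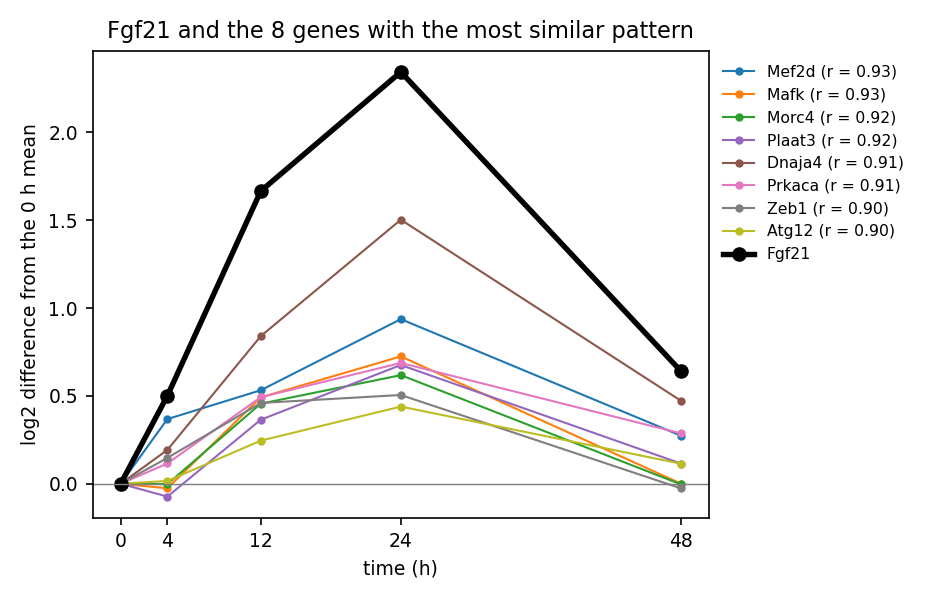
Log2 difference from the 0 h mean against time in hours for Fgf21 (black) and the 8 genes with the highest Pearson r over 15 arrays. All 9 lines peak at 24 h, Fgf21 at 2.34, Dnaja4 at 1.50 and the others at 0.44 to 0.94.

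Of the list genes, Atf6, Dnajb9 and Herpud1 of the ER folding list had an r of 0.89, 0.89 and 0.87 with Fgf21 over the 15 arrays, Eif4ebp1 and Gpt2 of the amino acid list 0.88 and 0.82, Pmaip1 0.82 and Atf5 0.82. Slc7a5 had 0.44 over all arrays, but 0.78 in replicates 1 and 2 and 0.89 in replicate 3. Mthfd2 had 0.58, 0.93 and 0.82 in the same order, by its second probe set and not that with the means given earlier. For the other genes too, the probe set behind an r need not be that of the values above.

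The genes beside Fgf21 on the chromosome gave no call. In RefSeq order the 10 nearest protein-coding genes are Nucb1, Ppp1r15a, Plekha4, Hsd17b14 and Bcat2 on one side and Fut1, Izumo1, Rasip1, Mamstr and Fut2 on the other. Of these 6 were tested, and none was called at 4, 12, 24 or 48 h against 0 h over all arrays or with the batch term. At 24 h 1.58% of all genes were called higher and 0.94% lower over all arrays, and 5.3% and 6% with the batch term. The highest difference at 24 h was 0.61, for Mamstr, a muscle coactivator of Mef2 factors. Ppp1r15a, which reverses eIF2 alpha phosphorylation, had 0.33, and Bcat2, a branched-chain amino acid transaminase, 0.03.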

How the data were processed

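The authors deposited a linear intensity for each probe set and array. How they summarised probes is not given in the sources used here. The 2%-trimmed mean was 500.1 to 500.2 on A and 500.1 on B, with medians of 154.8 to 183.5 and 219.7 to 256.0, so no further scaling was applied. Probe sets were named through a table of GEO's platform annotation: on A 20393 had 1 gene, 691 several and 1606 none here, and on B 14674, 245 and 7656. The position of the Fgf21 probes within the transcript is not given there.

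Intensities were taken to log2 after adding the 20th percentile of the chip (29 on A, 54 on B), which understates changes at low intensity. Tests covered the upper 60% of probe sets by mean (13576 on A, 13507 on B) with limma 3.58.1 in R 4.3.3 (lmFit, contrasts.fit, eBayes with trend), each chip alone over its 15 arrays with hour as factor. P-values are two-sided, adjusted by Benjamini-Hochberg per chip and comparison. Fgf21 comparisons with 0 h or 24 h arrays were planned as tests but are given as descriptions, since those arrays chose the gene. For a single gene, 3 against 3 arrays allow no exact permutation p below 0.1. Replicate 3 stood apart, so fits with it as a batch term and of replicates 1 and 2 alone stand beside the others. The fits were tested on simulated data.

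Lists use 1 probe set a gene, the brightest, from A where tested there. Named genes are Fgf21, its receptors, the 4 list members with the smallest F test p and the 8 most alike. Atf4, Hspa5, Psat1, Cth, Eif4ebp1, Dnajb9, Gadd45a, Trp53inp1, Bdnf, Cxcl12, Il6, Lif and Gpt2 were named after their values were seen. So were Bub1, Mcm2, the neighbours' examples and the genes sharing Fgf21's path. The members, lists and batch term were chosen with earlier results of these data known.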

Additional observations from a re-analysis of the deposited data

How the results depend on the processing

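The alternatives were quantile normalization, median centring, pseudocounts of 0.5 and 4 times the one used and of 1, no filter or the upper 40%, no intensity trend, only the hours compared, the replicate number as a block, replicate 3 as a batch term, replicates 1 and 2 alone and leaving out each array. The 24 h against 0 h difference of Fgf21 ran from 2.04 to 2.76 without 1 array and from 2.18 to 2.46 otherwise. No comparison among 4 h, 12 h and 48 h passed over all arrays or when 1 array was left out. With 1 array left out the difference ran from 0.80 to 1.69 for 12 h against 4 h. For 48 h against 12 h it ran from -1.55 to -0.75. With the replicate number as a block 48 h against 12 h passed (-1.03, adjusted p = 0.00952 in limma) and 12 h against 4 h did not (1.17, 0.0557). With the batch term both passed with the same values, as they did in replicates 1 and 2 alone (-1.47 and 1.32). Between 48 h and 4 h the sign turned in replicates 1 and 2 (-0.15), and it ran from -0.23 to 0.38 when each array was left out, negative without the 4 h array of replicate 3. The labels do not tie samples by number. Same-numbered A arrays correlated at 0.044 to 0.726 in their deviations from the hour means, over 0.1 in 29 of 30 pairs (B 23 of 30), and 11 of 15 A arrays correlated best with their own number (B 9 of 15). Since not every pair was over 0.1, the block was kept as an alternative, and these values are a hint of pairing on A. The difference of Fgf21 in replicate 3 from replicates 1 and 2 ran from -1.21 to -0.88, given without a test. At 24 h against 0 h the 362 A probe sets called became 1663 with the block, 1770 with the batch term and 2036 in replicates 1 and 2, and 60 (without the 24 h array of replicate 1) to 635 (without that of replicate 3) when each array was left out. In the same order 292 calls for 48 h against 0 h became 1223, 1329 and 1677 (44 to 433 when each array was left out), and 15 for 48 h against 12 h became 505, 567 and 991. The called amino acid response targets numbered 2, against 6 with the block or the batch term, 10 in replicates 1 and 2 and 0 to 5 when each array was left out, and the called ER folding genes 1, against 5, 5, 5 and 0 to 1. The cause was not tested. Under quantile normalization and median centring 22 of 24 amino acid response targets were positive at 24 h. Averaging over all probe sets of each gene moved 3 of 40 list medians by 0.1 or more, all of the Fgf21 receptors and at most by 0.219. The difference between replicates in the change at 24 h could not be computed without the 0 h or 24 h array of replicate 3.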
